A study of Mus musculus with 2 samples.

Results

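The genes described here mark the blood vessels of the brain. They are 42 named genes in 4 classes: 27 endothelial genes, 4 transporters of the blood-brain barrier, 7 pericyte genes and 4 smooth muscle genes. Members were found by their gene name among the non-control probes, which carry 37324 distinct gene or transcript names in all. Every member had at least 1 probe, 66 probes together.

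Total RNA of mouse brain was profiled on 1-colour Agilent expression arrays, with 1 array for GPHR F/F;Nes and 1 for a GPHR F/F littermate. Both samples were of the C57BL/6J strain at postnatal day 10, and both carry the GPHR F/F alleles, so the genotypes differ by Nes alone as labelled. The labels do not spell out which driver Nes stands for, in which cells it acts or whether RNA of several animals was pooled. GPHR, encoded by Gpr89, is an ion channel that keeps the Golgi lumen acidic.

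Brain capillaries are lined by endothelial cells whose tight junctions and transporters form the blood-brain barrier. Pericytes sit on these capillaries within the vessel basement membrane, and smooth muscle cells ring the arterioles, so both are called mural cells. Endothelial VEGF and angiopoietin receptors guide vessel growth, while platelet-derived growth factor from the endothelium recruits pericytes through Pdgfrb.

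All values are spot intensities, and a difference is the log2 level of GPHR F/F;Nes less that of GPHR F/F, after each array was set to its own 75th percentile. That percentile was 259.5 units (control) and 173.4 units (GPHR F/F;Nes), so equal raw signals give a difference of 0.58. A probe counts as measured when its spots on both arrays carry the software flag for signal well above background. The ± values are that software's technical error of the difference, which leaves out differences between animals. With 1 array per genotype there was no replicate check and no test, so "higher" and "lower" describe these 2 arrays and a 2-fold difference is a threshold of size. In bulk RNA, fewer cells of a type and less RNA per cell cannot be told apart.

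Of the 42 members, 27 were measured on both arrays. Signal passed background for 2 more members on the GPHR F/F;Nes array only, for 2 on the control array only and for 11 on neither. In the control, 67.0% of all probes were well above background, and in GPHR F/F;Nes 69.2% were. The targeted gene Gpr89 stood at 43.3 units (control) and 20.04 units (GPHR F/F;Nes), a difference of -0.53 ± 0.22 at its only probe, whose place relative to the deleted part is not given. Xist signal was present in GPHR F/F;Nes alone and the Y-linked genes Ddx3y, Eif2s3y and Uty had signal in the control alone. A further Y-linked gene, Kdm5d, was measured on both arrays, at 155 units (control) and 136 units (GPHR F/F;Nes), a difference of 0.39 ± 0.20. That value rests on 1 probe without a match to a RefSeq transcript. With no filter on dim probes, so that other Kdm5d signal entered, the mean difference was -2.91. With 1 array each, a difference in sex and one in genotype cannot be told apart.

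Several defining endothelial markers gave no signal above background. These were Cdh5 (the cadherin of endothelial junctions), Cldn5 (the main claudin of barrier tight junctions), the angiopoietin receptor Tek and its relative Tie1. The other members below background on both arrays were Icam2, Ly6a, Robo4, Sox18, Erg, the pericyte regulator Rgs5 and the muscle intermediate filament Des. At their brightest probes these 11 genes read at most 3.68 units (control) and 6.07 units (GPHR F/F;Nes). The endothelial class therefore rests on the 15 of its 27 genes that were measured.

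Mural genes held the largest differences of the set. Among the 8 measured mural members, 6 were past 2-fold toward GPHR F/F;Nes, with a median difference of 1.28. Of the 19 measured endothelial and barrier genes, 4 were, with a median of 0.19. Altogether 10 of 27 members (37.0%) were at least 2-fold higher and 0 were 2-fold lower, where 7.93% of all 24112 genes measured on both arrays were 2-fold higher and 1.37% were 2-fold lower. The median over the 27 members was 0.47, against 0.07 over all genes. A difference above 0 was seen in 20 of the 27 and one below 0 in 7, against 56.9% and 43.1% of all genes.

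**Figure D1:**
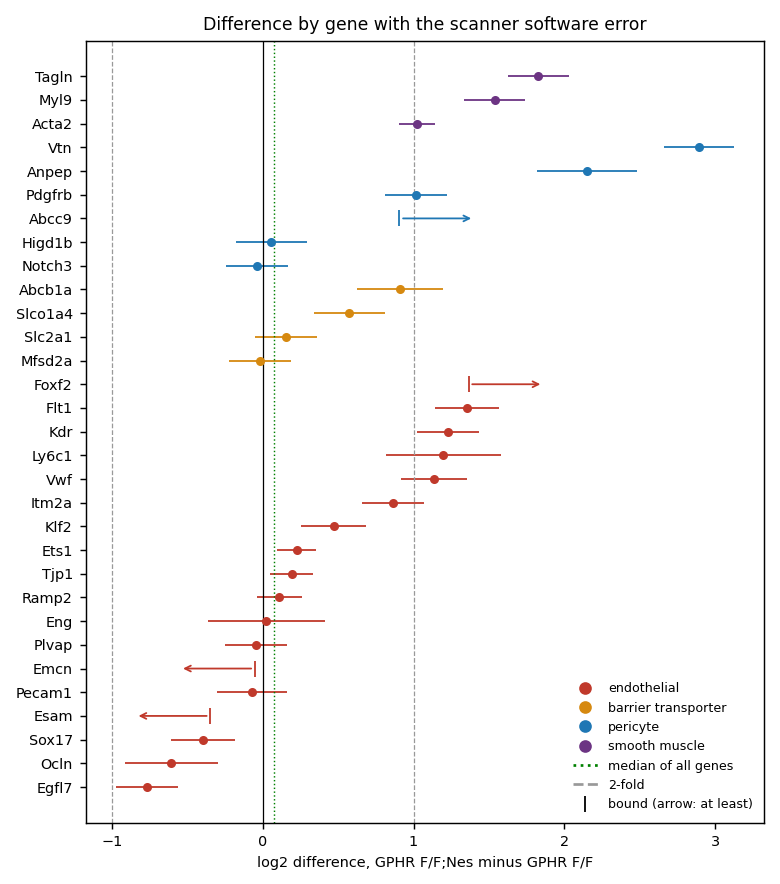
Log2 difference (x axis, positive where GPHR F/F;Nes was higher, 1 array per genotype) of every vascular gene with a value, coloured by class. Points carry the scanner software's error, ticks with arrows are bounds for genes measured on 1 array alone, dashed lines mark 2-fold and the dotted line the median of all genes (0.07). Vtn lies farthest right at 2.89 and Egfl7 farthest left at -0.77.

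Smooth muscle genes were all on the higher side where they were measured. Tagln encodes transgelin, an actin-binding protein of contractile cells. It read 2226 units (control) and 5281 units (GPHR F/F;Nes). GPHR F/F;Nes was thus the brighter array even before scaling, and the scaled difference was 1.83 ± 0.20, a 3.55-fold higher level. Myl9, the regulatory light chain of smooth muscle myosin, read 986 units (control) and 1912 units (GPHR F/F;Nes). That is a difference of 1.54 ± 0.20, or 2.90-fold. Des stayed below background, at 3.11 and 4.25 units.

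Acta2, the smooth muscle actin, gave 3 measured probes that did not read alike, and a further probe below background. Their sequences are shown because the value of this gene depends on which is used. Of the probe whose match is split on the genome all 60 bases are given, and of the 2 others the first 30.
Acta2 split probe: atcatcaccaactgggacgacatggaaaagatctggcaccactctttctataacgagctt
Acta2 downstream probe 1: gttttgtggatcagcgcctccagttccttt
Acta2 downstream probe 2: acactgacttcacagctagagtgactattt
On the minus strand of mm9, the split probe spans 3255 bp at chr19:34322995-34326249, so it joins separate blocks of the genome. The downstream probes lie at chr19:34316060-34316119 and chr19:34315697-34315756, which is 6876 and 7239 bp nearer the transcript's 3′ end. Which exons or untranslated regions they fall in was not analysed here.

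The split probe read 3054 units (control) and 2293 units (GPHR F/F;Nes), a difference of 0.17 ± 0.20. The first downstream probe read 1780 and 3457 units (1.54 ± 0.20), and the second 108 and 186 units (1.36 ± 0.21). Both downstream probes were brighter in GPHR F/F;Nes and the split probe was brighter in the control. Their mean put Acta2 at 1.02 ± 0.12, just past 2-fold, with an SD of 0.75 between probes.

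Actin genes have closely similar coding sequences, and whether the split probe also bound transcripts of other actins was not tested. Actb, a cytoplasmic actin, differed by 0.21, and the 3 probes of the other cytoplasmic actin, Actg1, lay between -0.10 and 0.26. The second smooth muscle actin, Actg2, differed by 0.19, while the striated muscle actins Acta1 and Actc1 differed by 1.09 and 1.12. The actins were chosen after their values were seen. The split Acta2 probe lay below the Acta1 and Actc1 probes and in the range of the Actb, Actg1 and Actg2 probes. The downstream probes lay above all of these actin probes. Why the Acta2 probes differ was not tested.

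The probes for Tagln and Myl9, the smooth muscle members with the larger differences, begin as follows and lie at chr9:45738097-45738156 (minus strand) and chr2:156607301-156607360 (plus strand) of mm9. Each of these members rests on 1 measured probe.
Tagln probe: ctttgaaggagacccagcccagcctctaca
Myl9 probe: cttaggcttgtggagttgtctcagcacccc
Smooth muscle promoters are known for the CArG box, the element bound by serum response factor: CC, then 6 letters that are each A or T, then GG, a form that reads the same on both strands. Promoter sequences of RefSeq (GRCm38.p6, 250 bases before to 50 after a start) matched 28 of the 42 members and 3 of the 4 smooth muscle members, Myl9, Acta2 and Des. Of these 28, 1 held an exact CArG box, that of Myl9, where 1.63% of all 32851 promoters of the same length hold one. The 250 bases before the Myl9 start are shown with that match in capitals, 161 bases before the start.
Myl9 promoter, chr2:156775214-156775463, plus strand, GRCm38.p6: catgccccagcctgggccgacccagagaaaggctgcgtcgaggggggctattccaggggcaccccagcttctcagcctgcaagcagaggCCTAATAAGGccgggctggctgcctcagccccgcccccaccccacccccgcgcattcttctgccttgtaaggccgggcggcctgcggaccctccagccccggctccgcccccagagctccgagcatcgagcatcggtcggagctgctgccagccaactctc
This match is a description of the letters in that window.

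Pericyte genes divided into a group with large differences and a group with none to speak of. Vtn encodes vitronectin, a secreted adhesion protein that brain pericytes make, and its probe joins 2 blocks of the genome over 273 bp at chr11:78315393-78315665 of mm9 (plus strand). It is shown whole because it carries the largest difference of the set.
Vtn probe: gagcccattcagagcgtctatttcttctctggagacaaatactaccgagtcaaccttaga
Vtn read 19.5 units (control) and 96.8 units (GPHR F/F;Nes). GPHR F/F;Nes was the brighter array by a scaled difference of 2.89 ± 0.23, or 7.43-fold. Anpep (aminopeptidase N, a surface enzyme of pericytes that fibroblasts also carry) read 8.07 and 24.0 units, a difference of 2.15 ± 0.33, or 4.45-fold. Its control signal lay near the lowest signal called well above background on that array, 6.28 units. Pdgfrb, the receptor through which pericytes are recruited, read 86.6 units (control) and 117 units (GPHR F/F;Nes). Its difference of 1.02 ± 0.21 was just past 2-fold.

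Notch3 and Higd1b showed no such difference. Notch3, a Notch receptor of mural cells, read 875 units (control) and 570 units (GPHR F/F;Nes), a scaled difference of -0.04 ± 0.20. Higd1b, a mitochondrial protein used as a pericyte marker, read 25.6 and 17.8 units (0.06 ± 0.24). For both genes the scaled levels of the 2 arrays differed by less than the software's error. Abcc9, a subunit of the potassium channel of pericytes, passed background only with GPHR F/F;Nes RNA (7.87 units there, 3.64 in the control), which puts it at least 1.87-fold higher. Rgs5 read 1.25 and 4.75 units, below background on both arrays.

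**Figure D2:**
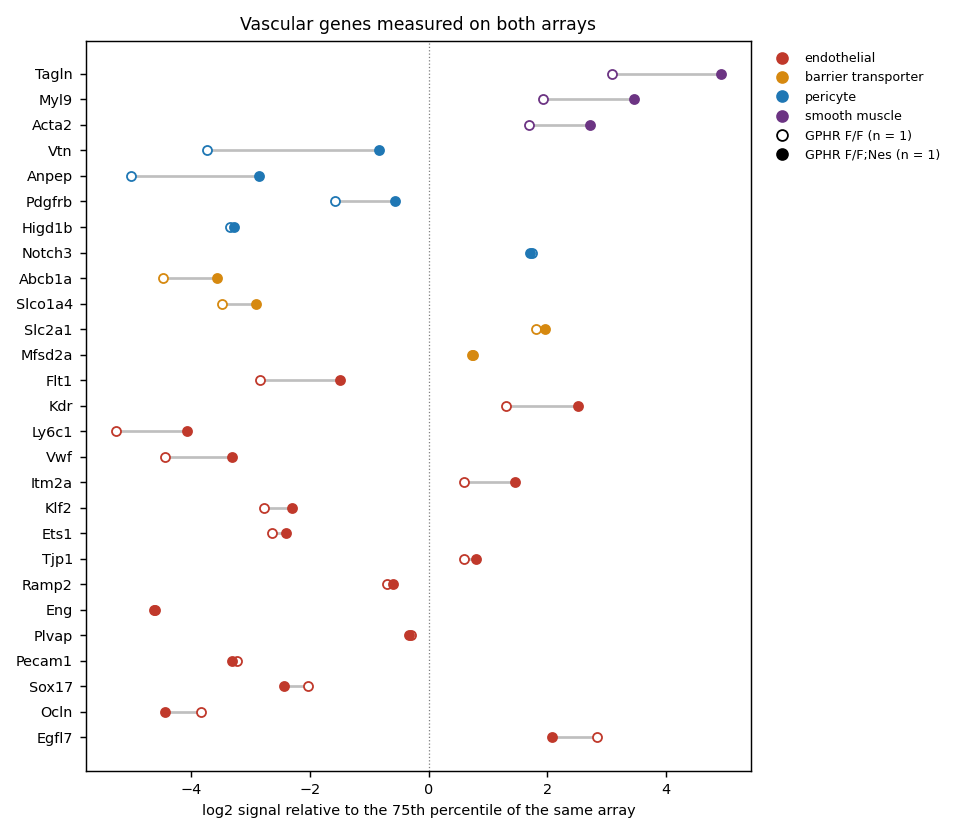
Scaled level of each member measured on both arrays (x axis, log2 signal relative to the 75th percentile of the same array), open circles for GPHR F/F and filled circles for GPHR F/F;Nes, coloured by class. The circles of Tagln, Myl9, Vtn and Anpep lie far apart, whereas those of Notch3, Higd1b, Mfsd2a, Plvap and Eng almost coincide. Levels of different genes come from different probes and are not to be compared.

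Among endothelial genes, the growth factor receptors had the largest differences. Kdr is the main signalling receptor for VEGF. It read 639 units (control) and 1000.1 units (GPHR F/F;Nes), a difference of 1.23 ± 0.20 (2.34-fold). Flt1, a VEGF receptor that also acts as a decoy, read 36.1 and 61.7 units, a difference of 1.35 ± 0.21 (2.56-fold). Both receptors were brighter in GPHR F/F;Nes before scaling as well. Each had 1 measured probe, and 2 other Kdr probes and 3 other Flt1 probes were below background on both arrays. The remaining receptors of this class, Tek, Tie1 and the guidance receptor Robo4, were below background on both arrays.

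Endothelial junction and surface genes differed little. Of 8 measured, 1 was at least 2-fold higher and the median was 0.07, the same as over all genes. Pecam1, the adhesion molecule CD31, read 27.6 units (control) and 17.5 units (GPHR F/F;Nes), a scaled difference of -0.07 ± 0.23. Plvap, the diaphragm protein of leaky vessels, which is low in mature barrier endothelium, differed by -0.05 ± 0.20, from 213 and 138 units. These raw signals were lower in GPHR F/F;Nes to about the same extent as the array as a whole.

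The tight junction scaffold Tjp1 differed by 0.19 ± 0.14 over 2 probes that gave 0.19 each. Ramp2, a subunit of the adrenomedullin receptor, differed by 0.11 ± 0.15, its 2 probes at 0.06 and 0.16. Eng, a co-receptor for TGF-beta, differed by 0.02 ± 0.39 at 10.5 and 7.11 units. Ocln, the tight junction protein occludin, was on the lower side at -0.61 ± 0.31, from 18.1 units (control) and 7.96 units (GPHR F/F;Nes).

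Esam and Emcn, surface proteins of endothelial cells, had signal above background in the control alone. Esam read 9.65 units in the control and 3.51 in GPHR F/F;Nes, at least 1.27-fold lower in GPHR F/F;Nes, and Emcn read 7.86 and 3.85 units, at least 1.04-fold lower there. These are small bounds because the control signals are close to background.

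Ly6c1 and Itm2a were the surface genes on the higher side. Ly6c1, a small surface protein of brain endothelium, read 6.72 units (control) and 10.3 units (GPHR F/F;Nes), a difference of 1.20 ± 0.38. That control signal lay near the lowest signal called well above background on the control array, 6.28 units. The second Ly6c1 probe, which passed background only with GPHR F/F;Nes RNA, matches a probe for the closely related gene Ly6c2 at 57 of 60 bases, so its signal may come from either gene. Itm2a, a membrane protein enriched in brain vessels, read 394 and 479 units, a difference of 0.86 ± 0.20. Itm2a lies on the X chromosome (chrX:104592916-104592975 of mm9), and the arrays also differed in Xist.

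The secreted endothelial proteins went opposite ways. Egfl7, a matrix protein of growing vessels, was the member with the lowest difference, -0.77 ± 0.20. It read 1868 units (control) and 734 units (GPHR F/F;Nes), 1.70-fold lower after scaling. Vwf, the clotting factor carrier of larger vessels, read 11.9 and 17.5 units as the mean of 2 probes, with differences of 0.91 and 1.36 and a mean of 1.13 ± 0.22. The Egfl7 probe lies at chr2:26448142-26448201 of mm9 (plus strand) and that of Kdr at chr5:76329309-76329368 (minus strand). Their first 30 bases are shown as the endothelial members that went farthest apart at bright probes.
Egfl7 probe: cctgtctaagtggtaaggtggggattgtct
Kdr probe: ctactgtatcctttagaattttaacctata

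Endothelial transcription factors stayed within 2-fold where they were measured. Sox17, a factor of arterial endothelium, differed by -0.40 ± 0.21 (63.6 and 32.2 units). Klf2, which responds to blood flow, differed by 0.47 ± 0.22 (38.0 and 35.2 units). Ets1 differed by 0.22 ± 0.13 over 3 probes that ranged from -0.13 to 0.43. Foxf2, a factor of brain endothelium and pericytes, passed background only with GPHR F/F;Nes RNA (10.8 units), at least 2.58-fold higher there. Of the 2407 genes measured on 1 array alone, 29.3% had such a bound of at least 2-fold toward GPHR F/F;Nes and 5.03% toward the control.

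No barrier transporter reached 2-fold, and the median of the 4 was 0.37. Slc2a1, the glucose transporter of barrier endothelium that astrocytes also carry, read 914 units (control) and 680 units (GPHR F/F;Nes), a difference of 0.16 ± 0.20. Mfsd2a, the lipid transporter that limits transcytosis, read 436 and 287 units, a difference of -0.02 ± 0.20. At these brighter probes the scaled levels differed by less than the software's error. Slco1a4, an organic anion transporter, read 23.2 and 23.0 units (0.57 ± 0.24), and Abcb1a, the drug efflux pump P-glycoprotein, read 11.7 and 14.7 units (0.91 ± 0.28). The probes of Slco1a4 and Abcb1a were dim, in the range where genes in general lay on the higher side, as described next.

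The differences of all genes varied with signal level, and so did what a member's difference stands beside. In the 6028 genes with the lowest levels the median difference was 0.38, and 16.7% were at least 2-fold higher. In the 6028 with the highest levels the median was -0.07, and 2.90% were at least 2-fold higher. Of the members, 9 were among the lowest, with a median of 0.57 and 3 at least 2-fold higher (Anpep, Ly6c1 and Vwf). In the next 6028 genes up, where all genes had a median of 0.15 and 7.93% were 2-fold higher, 3 of 6 members were 2-fold higher (Vtn, Flt1 and Pdgfrb). In the group above it, where all genes had a median of -0.02 and 4.16% were 2-fold higher, 0 of 4 members were. Among the highest, 4 of 8 members were: Tagln, Myl9, Acta2 and Kdr. Members just past 2-fold were Pdgfrb and Acta2 at 1.02 each, and those just short of it Abcb1a at 0.91 and Itm2a at 0.86.

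**Figure D3:**
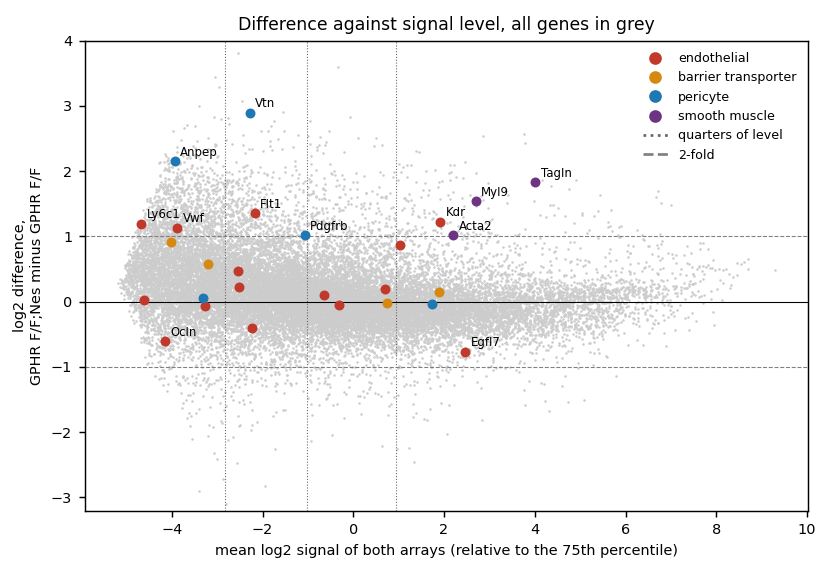
Log2 difference (y axis, positive where GPHR F/F;Nes was higher) against mean log2 level (x axis) for all 24112 genes in grey, 6 of which lie outside the axis, with vascular members coloured by class. Dotted lines part 4 groups of 6028 genes by level and dashed lines mark 2-fold. The grey cloud lies above 0 at its dim end, and Tagln, Myl9 and Kdr lie among the upper points at its bright end.

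The size of several of these differences depended on the processing. Tagln and Myl9 were at least 2-fold higher in all 12 settings, the main one included, other than scaling to spike-in RNAs, and Vtn in all 11 in which it was measured. Kdr and Flt1 were so in 10 of 12, Anpep in 10 of 11, Acta2 in 9 of 12, Pdgfrb in 8 of 12, Ly6c1 in 7 of 11 and Vwf in 6 of 11. Over these settings the lowest differences were 1.55 for Tagln, 1.21 for Myl9, 0.69 for Kdr and 0.17 for Acta2. Normexp correction followed by quantile normalization gave the lowest values of Vtn (1.22), Pdgfrb (0.59), Flt1 (0.52), Anpep (0.37), Vwf (0.14) and Ly6c1 (0.08). Egfl7, Ocln, Sox17, Pecam1 and Plvap lay below 0 in every setting in which they were measured. For the 22 members with 1 measured probe, the brightest probe and the median over probes return the main value by construction. For Tagln, Myl9 and Vtn the value table, outlier spots kept and RefSeq-matched probes also gave the main value or nearly so. The numbers of settings are therefore not numbers of independent checks.

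Scaling to 8 spike-in probes, which were brighter in GPHR F/F;Nes by 0.37, moved the median of all genes from 0.07 to -0.88 and that of the members from 0.47 to -0.48. Such scaling shifts every gene by the same amount, so the members' median had to stay 0.40 above that of all genes. On this scale Vtn (1.94) and Anpep (1.20) were still 2-fold higher, Tagln (0.88), Myl9 (0.59) and Kdr (0.28) stayed above 0, and Egfl7 (-1.72), Ocln (-1.56), Sox17 (-1.35) and Pecam1 (-1.02) were 2-fold lower. These are 4 of 27 members, where 38.3% of all genes were 2-fold lower on that scale. The 2 members that were 2-fold higher stand beside 0.771% of all genes.

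**Figure D4:**
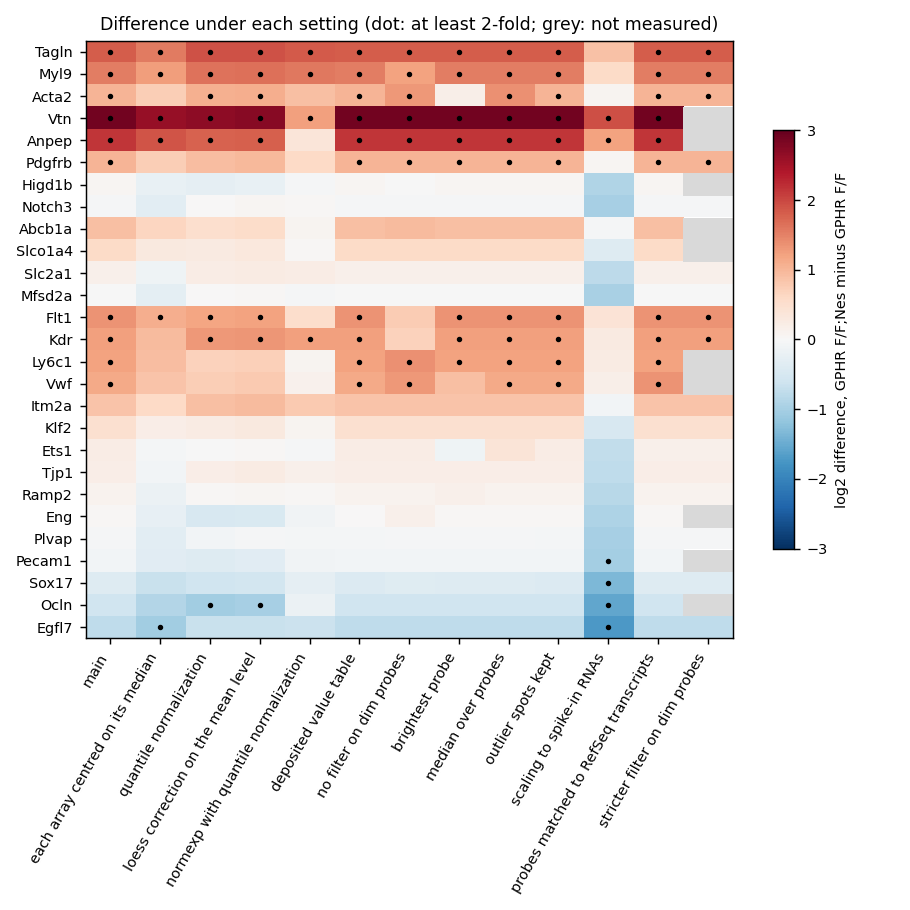
Log2 difference (colour, positive where GPHR F/F;Nes was higher) of each measured member (rows) under each processing setting (columns), with dots at differences of at least 2-fold and grey where a gene was not measured. Tagln and Myl9 carry a dot in every column except that of spike-in scaling, whereas the dots of Ly6c1 and Vwf are missing from several.

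Genes of vascular signalling, from a list of 56 that are not members, were measured for 47. Of these, 9 were at least 2-fold higher and 0 lower, with a median of 0.28. Among 19 ligands, 1 was 2-fold higher, the chemokine Cxcl12 (1.34 ± 0.15, its probes at 0.59 and 2.10). That is 5.26%, near the 7.93% of all genes. Of 19 receptors 5 were 2-fold higher (26.3%), and of 9 targets and regulators 3 were (33.3%). The TGF-beta receptor Tgfbr2 (1.42 ± 0.20) and the inhibitory Smad6 (1.35 ± 0.29) had the largest differences beside Cxcl12. Dll4, the Notch ligand of sprouting endothelium, was measured only with GPHR F/F;Nes RNA and was at least 2.63-fold higher.

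The ligands of member receptors given next were chosen after their values were seen, and as gene means they lay under 2-fold. For Kdr and Flt1, Vegfa differed by -0.14 as the mean of 4 probes that ranged from -1.03 to 1.76, Vegfb by -0.18 ± 0.20 and Pgf by -0.25 ± 0.23. For Pdgfrb, Pdgfb differed by 0.23, its 2 probes at -0.43 and 0.89, and Pdgfd by 0.64 ± 0.26. For Tek, which was below background, Angpt1 differed by 0.73 ± 0.20 and Angpt2 by -0.33 ± 0.20. Jag1, a ligand of Notch3, differed by -0.12 ± 0.21.

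Other genes of the vessel wall gave the following counts. Of 30 further mural genes, 20 were measured, of which 6 were at least 2-fold higher and 17 lay above 0 (median 0.56). The 10 smooth muscle genes among them all lay above 0 (median 0.78), and 3 were 2-fold higher. Of the 10 pericyte genes, 3 were 2-fold higher and 3 lay below 0. Their median was 0.26, against 1.02 for the pericyte members. The smooth muscle genes Cnn1 (1.91 ± 0.20) and Tpm2 (1.80 ± 0.25) and the factor Foxc1 (2.07 ± 0.22), which meningeal cells also carry, had the largest differences. Tbx18, a mural and meningeal factor, was measured only with GPHR F/F;Nes RNA and was at least 4.26-fold higher. All 12 genes of the vessel basement membrane were measured, 4 of them 2-fold higher (median 0.88), with the laminin chain Lama4 at 2.24 ± 0.30, Nid2 at 1.80 ± 0.21 and Sparc at 1.23 ± 0.12.

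Other transporters of brain endothelium lay on the other side. Of 20, 17 were measured, 12 lay below 0 and the median was -0.31, with 1 at least 2-fold higher, the iron exporter Slc40a1 (1.11 ± 0.24), and 1 lower, the cationic amino acid transporter Slc7a1 (-1.26 ± 0.20). Atp10a, a lipid flippase, stood at 0.98 ± 0.18. Many of these transporters are also made by neurons or glia. Of 13 genes of endothelial activation, 9 were measured, and the adhesion molecule Icam1 had the largest difference (1.98 ± 0.22). The stem cell antigen Cd34 stood at 0.76 ± 0.21, and Lrg1 was measured only with GPHR F/F;Nes RNA and was at least 2.01-fold higher. The median of the activation list was 0.09, close to that of all genes.

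Higher levels were also seen for markers of bordering tissues. Of 14 meninges and fibroblast markers on the array, 10 were measured, 7 of them at least 2-fold higher (median 2.17), and 2 more, measured only with GPHR F/F;Nes RNA, had a bound past 2-fold. Slc6a13 (2.84 ± 0.28), Igf2 (2.78 ± 0.16) and Gjb2 (2.62 ± 0.22) had the largest differences, and Dpt and Slc47a1 were below background. Summed over the 10 genes, signal was 10.3 times the 75th percentile in the control and 17.2 times in GPHR F/F;Nes. Such sums weigh bright probes most, here Dcn, which read 1682 units (control) and 1071 units (GPHR F/F;Nes) and differed by -0.07 ± 0.20, so they do not describe the other markers of a list. Fibroblasts of the meninges and their vessels also express Tagln, Acta2, Myl9 and Anpep, and the part of bordering tissue in the members' differences was not tested.

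Of 12 choroid plexus markers, 9 were measured and 5 were 2-fold higher (median 1.34), led by Ttr at 5.35 ± 0.22, and their summed signal was 1.47 times the 75th percentile in the control and 6.87 times in GPHR F/F;Nes. Ttr read 26.2 units (control) and 716 units (GPHR F/F;Nes). It was the brightest of these markers in GPHR F/F;Nes, so the sum there weighs Ttr most. Of 12 microglia markers, 10 were measured and 6 were 2-fold higher (median 1.20), with Trem2 at 2.14 ± 0.23. Their sums of 44.0 and 95.3 came mostly from Itgam (10450 and 15584 units, 1.16 ± 0.20). Their parts in the members' differences were not tested either.

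Neuron markers were lower in all 12 cases (median -0.24, sums of 110 and 86.2), with Nefm at -1.60 ± 0.14. Astrocyte markers had a median of 0.32, with sums of 64.1 and 68.0, and oligodendrocyte lineage markers one of -0.07, with sums of 32.1 and 23.3 and Gpr17 at -2.46 ± 0.20. Of the globin genes, Hba-a1 differed by -0.28 ± 0.06 (49.4 and 27.3 units) and Hba-a2 by -0.07 ± 0.07, neither of them higher in GPHR F/F;Nes. The amount of blood left in the vessels was not tested. The anion exchanger Slc4a1, named after its value was seen, went the other way: it was measured only with GPHR F/F;Nes RNA (8.23 units, against 6.28 in the control) and was at least 1.96-fold higher. The other 5 erythrocyte markers on the array were below background on both arrays, among them Hbb-b1.

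**Figure D5:**
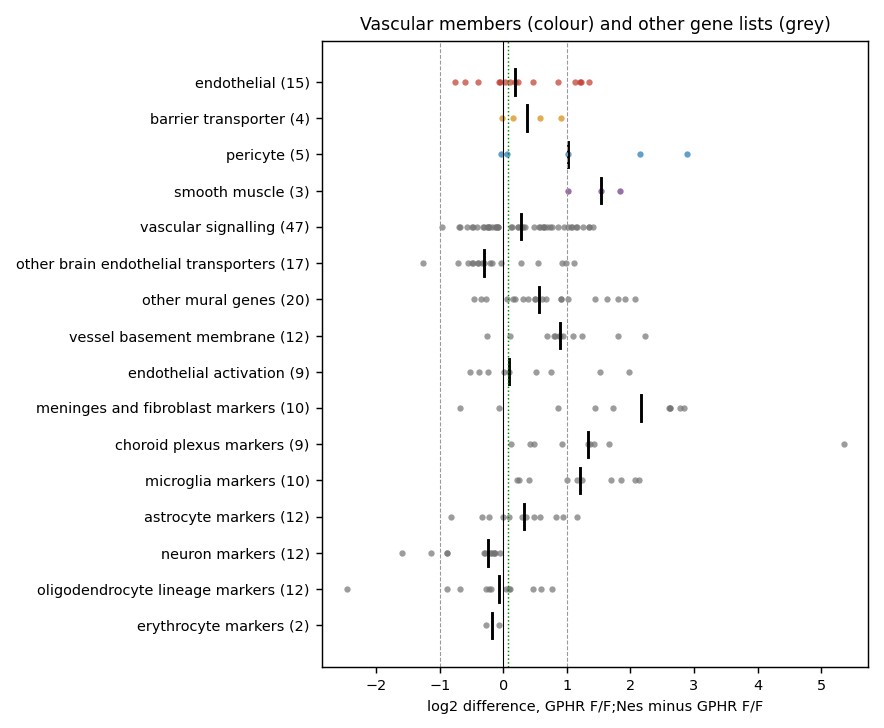
Log2 difference (x axis, positive where GPHR F/F;Nes was higher, 1 array per genotype) of single genes (points) in the 4 classes of vascular members (colour) and in other gene lists (grey), with the number measured in brackets. Black bars are medians, dashed lines 2-fold and the dotted line the median of all genes. Smooth muscle (1.54) and pericyte (1.02) medians lie between those of endothelial genes (0.19) and of meninges and fibroblast markers (2.17). So do the medians of other lists, among them choroid plexus (1.34), microglia (1.20) and vessel basement membrane (0.88).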

How the data were processed

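Per the labels, TRIzol-extracted RNA was labelled with Cy3 for 1-colour arrays, and per the submitters' processing notes the scans were read with Agilent Feature Extraction 11.5.1.1. The deposited scanner output gives each spot's intensity on a linear scale, with spatial and multiplicative trends removed and no further background correction, per the file headers. The deposited flags (other values, 0 or 1 for each spot) mark spots well above background, saturated (0 spots) or outlying. The deposited value table is on the log2 scale and, within 0.01, equalled log2 of the processed signal plus 1 constant per array (-8.01 and -7.43) for nearly all probes. Its direction was thereby known, its unit is that of the scanner signal, and nothing at hand says how the constants were set.

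Outlier spots (51 per array) were left out, spots of a probe were averaged as log2, and each array's 75th percentile over 56603 probes was subtracted. A gene's value is the mean over its measured probes. A gene measured on 1 array alone got a bound, set from the dim probe or, where that was lower, from the array's dimmest probe above background (6.28 units in the control, 5.06 in GPHR F/F;Nes). Accessions matched a RefSeq transcript of GRCm38.p6, used for names, for 32993 probes, and for 49 of the 66 member probes. Probe coordinates are those of the file headers (mm9), and both arrays were on 1 slide, in 1 scan.

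The members, their classes and the 12 other gene lists were chosen with earlier results of these data known. Named beside the members were the 3 largest differences of each list, bounds of at least 2-fold and sample checks, except for 1 listed gene that is not reported here. Medians and counts describe the lists, and no test was made. Alternatives were other scalings, quantile and loess (span 0.3) normalization, normexp correction (offset 50) followed by quantile normalization, the value table, filters on dim probes, summaries over probes, outlier spots kept and thresholds of 1.5-fold and 3-fold. Spike-in scaling and RefSeq-matched probes were added after seeing the data. Python 3.11.15, numpy 2.4.6, pandas 2.3.3, R 4.3.3 and limma 3.58.1 were used, and the calculation was tested on simulated arrays.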

Additional observations from a re-analysis of the deposited data

How the results depend on the processing

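The deposited value table, the median over probes, outlier spots kept and RefSeq-matched probes left the counts of 10 members higher and 0 lower as they were. The number at least 2-fold higher was 5 with each array centred on its median, 4 after normexp correction followed by quantile normalization, 6 with a stricter filter on dim probes (17 members measured), 3 at a 3-fold threshold and 2 after spike-in scaling, and between 7 and 15 otherwise. Members at least 2-fold lower numbered 1 with median centring (Egfl7), 1 after quantile normalization and 1 after loess correction (Ocln in both). At a 1.5-fold threshold 2 members were lower, and after spike-in scaling 4 were 2-fold lower. The shares of all genes lower were 3.39%, 2.37%, 2.11%, 5.73% and 38.3% in the same order. Of all genes, 4.48%, 1.37% and 4.23% were 2-fold higher with median centring, normexp with quantile normalization and the stricter filter. This share was 5.14% after quantile normalization, 5.54% after loess correction, 8.29% with the brightest probe, 14.9% with no filter and 0.771% after spike-in scaling. It was 18.1% at the 1.5-fold and 2.28% at the 3-fold threshold. In the settings that left the member count at 10, it lay between 6.34% and 7.95%. Of all genes past 2-fold, 85.3% were higher in the main setting, 56.9% with median centring and 68.4% after quantile normalization. After loess correction 72.4% were, and after spike-in scaling 1.97%.

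With median centring, which moved the median of all genes to -0.20, class medians were -0.0850 for endothelial genes, 0.0891 for barrier transporters, 0.74 for pericyte and 1.26 for smooth muscle genes. After spike-in scaling they were -0.76, -0.59, 0.0650 and 0.59 in the same order. Normexp correction with quantile normalization, which changes both choices, gave 0.0669 for barrier transporters and 0.37 for pericyte genes, against 0.25 and 0.92 with quantile normalization alone. The stricter filter gave 0.0679 and 0.49 for these, and no filter gave 0.44 for endothelial and 1.26 for smooth muscle genes, since other probes enter. The causes of the other shifts were not tested. The brightest probe alone put Acta2 at 0.17. Dim probes limit most endothelial members. No paired analysis was possible because each genotype has 1 array, and for the same reason no replicate could be left out.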
